A study of Mus musculus with 24 samples.

Results

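RNA levels of 48 cell cycle and mitosis genes were followed in neural stem cells (NSCs) with and without the MommeD43 allele of Smchd1. The 48 genes were taken by symbol from a deposited table of 14922 genes, and all of them were found. NSCs were grown as adherent monolayers from the cortex of female embryos at E14.5, in medium with the mitogens EGF and FGF. Cells on the FVB/NJ background were Smchd1+/+ (FVB_WT, 5 lines) or homozygous for the chemically induced point change MommeD43 (FVB_MD43, 4 lines). The C57BL/6J cells had a Smchd1-GFP fusion, either without further change (B6GFP_WT, 4 lines) or homozygous for MommeD43 made by genome editing (B6GFP_MD43, 4 lines). The labels call the B6GFP_WT cells Smchd1+/+, while the methods of the study describe them as homozygous for the fusion. Strain and fusion always went together, so they cannot be told apart. Each line is a separate culture with its own number in the labels. Of 24 labelled libraries, 22 from 17 lines were used, since 2 columns equalled the mean of the others of their group in every gene.

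A dividing cell passes through a G1 phase, in which cyclin D with CDK4 or CDK6 and then cyclin E with CDK2 inactivate the RB proteins and free the E2F factors. E2F targets include the MCM helicase subunits, PCNA and the enzymes that supply nucleotides in S phase. The later wave of genes for G2 and mitosis (cyclins A and B, CDK1, the Aurora and Polo kinases, the kinesins and the spindle checkpoint) is driven by B-MYB and FOXM1 through MuvB complexes, and CDK inhibitors encoded by Cdkn1a, Cdkn1b, Cdkn2a and Cdkn2c hold the cycle back. In NSCs these genes are commonly read as a measure of how many cells of a culture are cycling. In bulk RNA, fewer cycling cells and less of the RNA per cycling cell cannot be told apart.

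The values were log2 CPM, which scales reads to the size of each library, and the authors had corrected them for batch. Batch 2 was the shallowest, with 0.137 to 0.19 times the depth of the deepest library, beside 0.526 to 0.893 for batch 1 and 0.435 to 1 for batch 3. Batch 1 held both strains, batch 2 FVB alone and batch 3 B6GFP alone, so the comparison of strains rests on batch 1. The 10 markers of neural stem cells were all in the table, with a summed level of 12.38 to 12.94 log2 CPM over all libraries. Of 7 microglial markers only P2ry12 was in the table, the 4 endothelial markers summed to −0.49 to 3.56 log2 CPM, and 4 of 5 meningeal fibroblast markers summed to −1.21 to 1.87. One library stood apart: B6GFP_MD43 line 37.2 had the highest sums of the neuronal (10.39), endothelial (3.56) and fibroblast (1.87) lists, where the other libraries of its group reached at most 10.1, 0.69 and −0.16. That line and B6GFP_WT line 49.1 also had the lowest quality weights in the fit (0.158 and 0.101, in a range to 4.9). Counts of members that passed between strains are given with and without them, while values by line, their spread and their overlap include them.

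Promoter sequences of RefSeq on GRCm38.p6, from 250 bases before to 50 after the start, were at hand for 39 of the 48 members (44 windows). They were searched on both strands for the E2F words TTTGGCGC, TTTCCCGC, TTTCGCGC and TTTGCCGC, for the cell cycle genes homology region (CHR) as TTTGAA or TTCGAA, and for the CCAAT box. Words on opposite strands may overlap, and a match is a description of the letters only. An E2F word lay in 6 of 12 windows of the replication and nucleotide genes (50%), in 1 of 14 windows of the mitotic genes (7.14%) and in 2.26% of all 32851 windows. A CHR word lay in 11 of 14 windows of the mitotic genes (78.6%), in 2 of 12 of the replication and nucleotide genes (16.7%) and in 19.2% of all windows. CCAAT was held by 92.9% of the mitotic windows, 75% of the replication and nucleotide windows and 37.4% of all windows. The stretches of 150 bases before the start of 4 members whose levels are described here are printed to show both kinds of word, with capitals for E2F words in Mcm6 and for CHR words in the others:
Mcm6: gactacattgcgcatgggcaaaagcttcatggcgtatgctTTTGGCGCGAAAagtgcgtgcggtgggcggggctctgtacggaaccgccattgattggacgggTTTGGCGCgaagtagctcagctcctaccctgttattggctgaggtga
Kif11: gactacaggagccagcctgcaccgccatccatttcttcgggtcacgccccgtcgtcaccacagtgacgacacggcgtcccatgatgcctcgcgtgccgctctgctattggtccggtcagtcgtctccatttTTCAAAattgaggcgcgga
Top2a: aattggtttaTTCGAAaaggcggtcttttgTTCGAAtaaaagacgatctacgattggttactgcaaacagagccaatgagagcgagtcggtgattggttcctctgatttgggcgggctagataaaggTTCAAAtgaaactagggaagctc
Cdc20: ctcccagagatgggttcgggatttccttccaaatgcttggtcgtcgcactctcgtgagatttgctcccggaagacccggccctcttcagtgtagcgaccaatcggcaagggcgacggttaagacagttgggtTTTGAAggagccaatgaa
These stretches lie at chr1:128359706-128359855 (minus strand), chr19:37376232-37376381 (plus), chr11:99024190-99024339 (minus) and chr4:118437344-118437493 (minus). The start is that of the promoter window used. The annotated Top2a gene reaches to 99024199, so the last bases of its stretch lie within that gene. In Mcm6 a pair of overlapping E2F matches lies upstream of a single one, and in Kif11 and Cdc20 a single CHR word lies close to the start.

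Most members were well expressed. The cyclins D of G1 led the order of mean levels over lines, with Ccnd1 at 11.36 and Ccnd2 at 10.58 log2 CPM, followed by the topoisomerase gene Top2a (9.66), Cdk4 (9.09) and the proliferation marker Mki67 (8.9). The lowest were the G1 kinase gene Cdk6 (2.97), the inhibitor gene Cdkn2a (4.66), the cyclin E gene Ccne2 (4.93) and E2f1 (4.98). These are levels per gene without correction for length, so they rank reads and not molecules. Within groups the median SD over lines was 0.174 for the members and 0.217 for all genes, which were not matched to the members for level. The widest spread was that of Cdkn2a (0.457), Ccne2 (0.363), Ccne1 (0.36) and Cdc6 (0.316), and the narrowest was that of Tpx2 (0.103), the spindle assembly factor. The members Ccnd3, Pcna, Tyms, Ccnb1 and Ccnb2, (5 in all) have a pseudogene named after them in the annotation and may share reads with it.

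**Figure D1:**
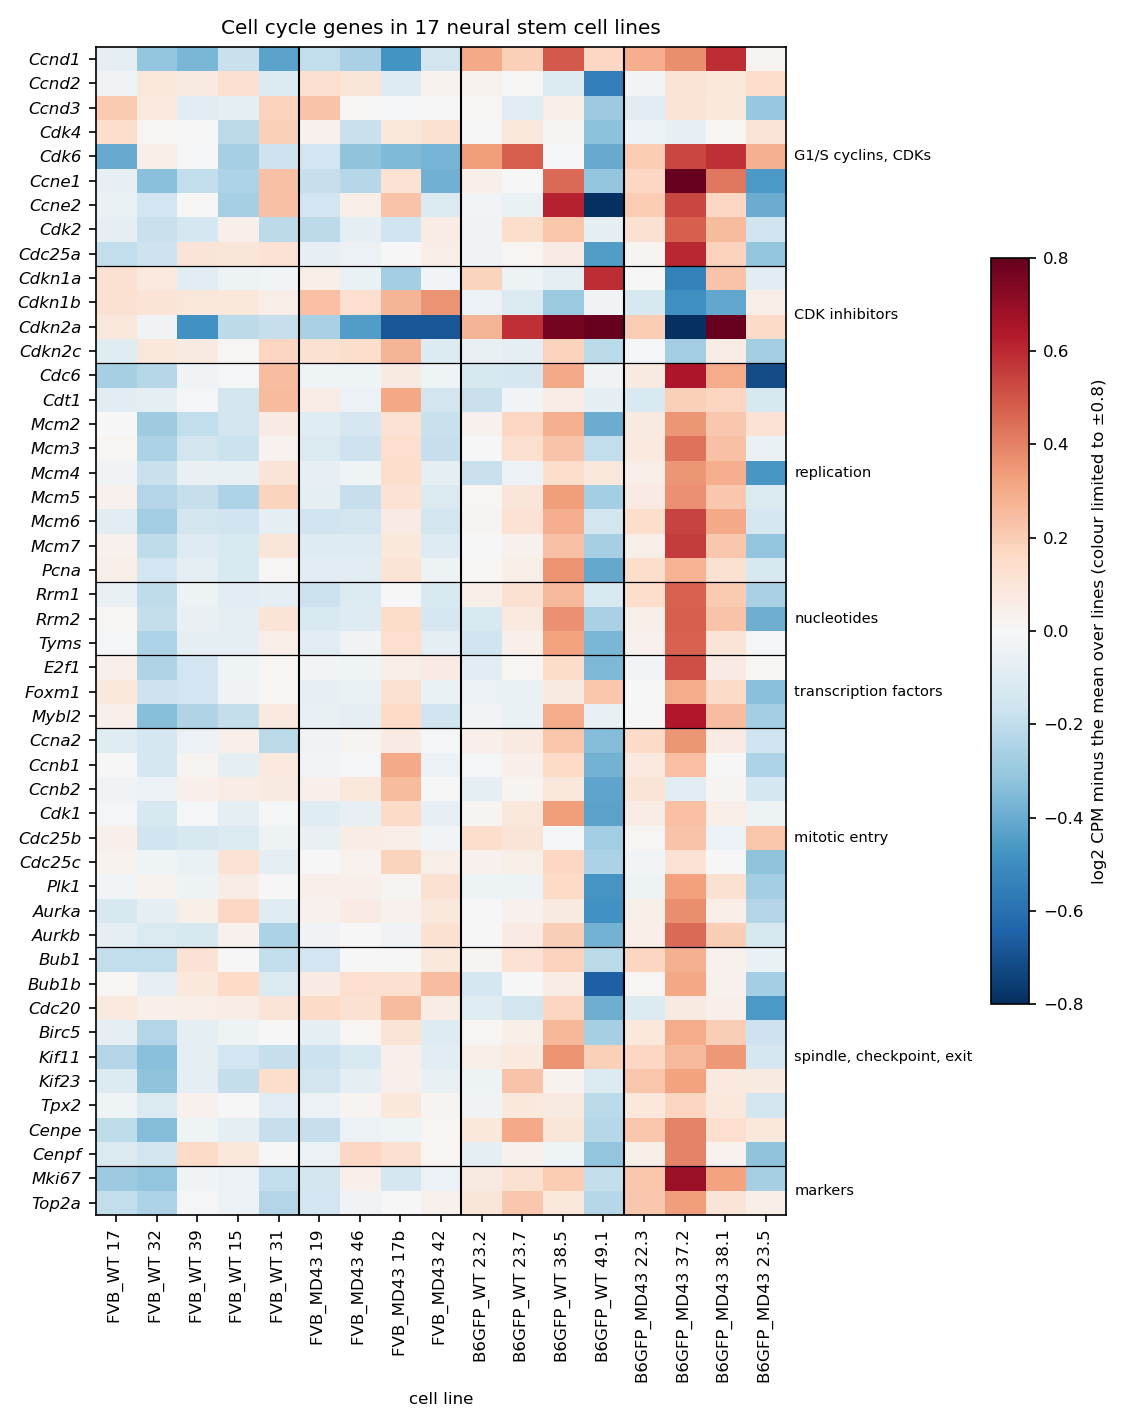
Heat map of the 48 members (rows, grouped by role) in the 17 cell lines (columns, grouped by strain and genotype), coloured by log2 CPM minus the gene's mean over lines. Ccnd1, Cdkn1b and Cdkn2a change colour between the FVB and B6GFP columns, and B6GFP_WT line 49.1 and B6GFP_MD43 lines 37.2 and 23.5 stand out as whole columns.

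The comparison of strains came first. In wild-type cells, 23 of 48 members (47.9%) were higher in B6GFP than in FVB and 1 (2.08%) was lower, at an adjusted p under 0.05 (limma, Benjamini-Hochberg over all genes). Over all genes 17.9% were higher and 23.2% were lower. The median change of the members was 0.14 on the log2 scale, against −0.02 for all genes, and 38 of 48 members had a positive change. These counts lean on the quality weights: without weights 2 members passed, Ccnd1 and Kif11, and 8.44% of all genes. Without FVB_WT line 32, 9 members were higher and 1 lower, beside 11.2% of all genes higher. Within batch 1 alone 17 were higher and 1 lower, beside 15.1% of all genes higher. Centring each library gave 28 higher and 1 lower, and turned the split over all genes from 2676 higher and 3455 lower into 3608 and 2544. FVB reads had been mapped to a genome derived from C57BL/6J, and the part of mapping in these differences was not tested.

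Ccnd1, which encodes cyclin D1 and joins mitogen signals to the cell cycle, had the smallest p (chromosome 7, 144929931 to 144939831 on GRCm38.p6). It read 11.28, 11.05, 10.99, 11.18 and 10.93 log2 CPM in the 5 FVB_WT lines and 11.66, 11.55, 11.85 and 11.52 in the 4 B6GFP_WT lines. The highest FVB_WT line was below the lowest B6GFP_WT line. The change was 0.66 ± 0.08 (log2, SE; 1.58-fold; adjusted p = 1.1e-06), and it passed under all 30 alternatives of the analysis, from 0.57 to 0.72. The alternatives share libraries, and 17 of them left out 1 line each, also lines of groups not compared, so they are not independent checks. The other cyclins D did not move with Ccnd1, as Ccnd2 changed by −0.08 ± 0.06 (adjusted p = 0.26) and Ccnd3 by −0.02 ± 0.07 (adjusted p = 0.86).

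Every B6GFP_WT line was above every FVB_WT line for 3 members (6.25%), Ccnd1, Cdkn2a and Kif11, near the share of all genes (6.5%). Every B6GFP_WT line was below every FVB_WT line for Cdkn1b (2.08%), beside 9.38% of all genes. Kif11 (chromosome 19, 37376382 to 37421863) encodes the kinesin that pushes the spindle poles apart. It read 7.68, 7.58, 7.84, 7.76 and 7.73 in FVB_WT and 7.96, 7.99, 8.27 and 8.1 in B6GFP_WT, a change of 0.33 ± 0.07 (adjusted p = 7.6e-04) that also passed under all 30 alternatives. Cdkn1b (chromosome 6, 134920401 to 134925525) encodes an inhibitor of cyclin E and cyclin A kinases. It read 6.97, 6.96, 6.94, 6.93 and 6.9 in FVB_WT and 6.8, 6.73, 6.55 and 6.82 in B6GFP_WT. Its change was −0.28 ± 0.07 (0.82-fold; adjusted p = 0.0025), the only fall that passed among the members in wild type, and the adjusted p was 0.22 without quality weights.

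Cdkn2a (chromosome 4, 89274473 to 89294619) differed in the opposite direction. The locus gives an inhibitor of CDK4 and CDK6 and, in another frame, a protein that stabilises p53, and the counts do not separate these products. It read 4.75, 4.63, 4.17, 4.45 and 4.47 in FVB_WT and 4.93, 5.24, 5.42 and 5.68 in B6GFP_WT, and the groups did not overlap. The change was 0.75 ± 0.15 (1.68-fold; adjusted p = 4.7e-04). Without quality weights the change was 0.81 and the adjusted p was 0.12. Cdkn1a, the inhibitor gene induced by p53, changed by 0.08 ± 0.08 (adjusted p = 0.47), and Cdkn2c, an inhibitor of CDK4 and CDK6, by −0.10 ± 0.07 (adjusted p = 0.27).

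**Figure D2:**
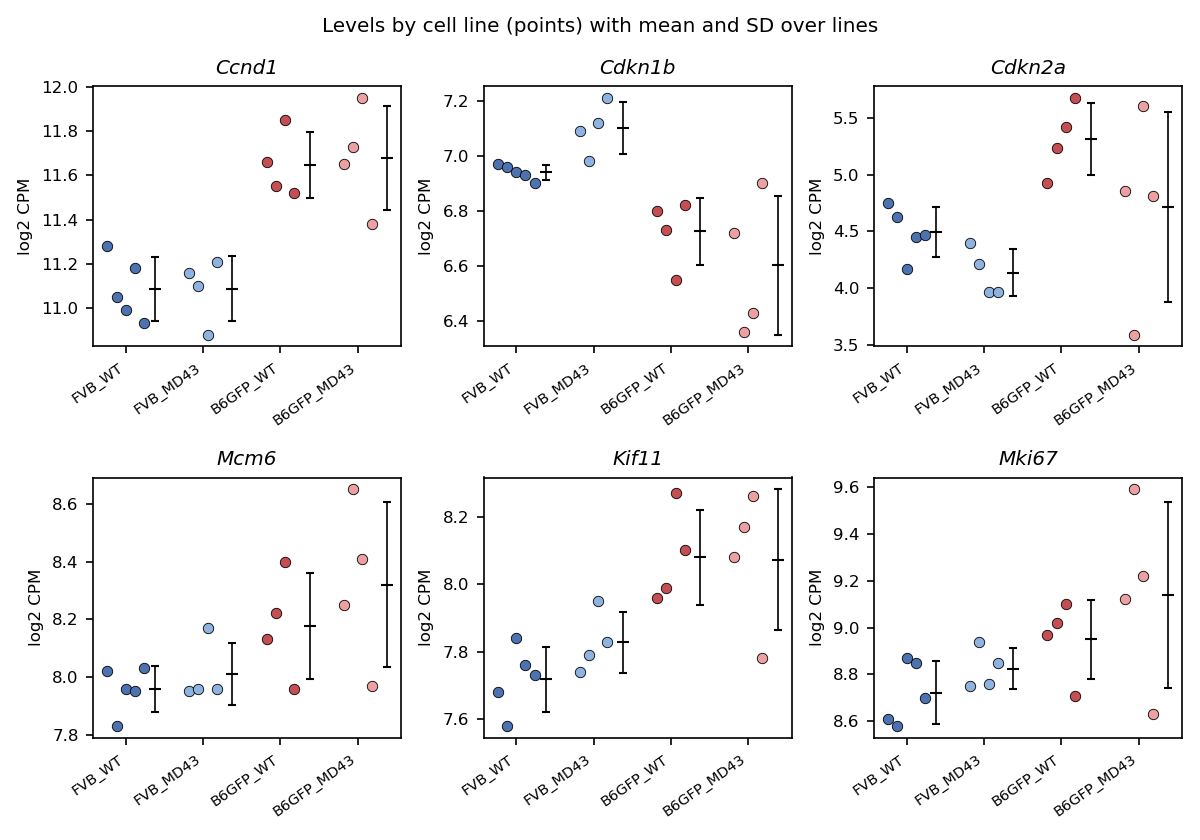
Levels (log2 CPM) of Ccnd1, Cdkn1b, Cdkn2a, Mcm6, Kif11 and Mki67, one point per cell line, with the mean and SD over lines beside each group. The axes differ between genes and do not start at 0; For Ccnd1 every B6GFP line is above every FVB line, and for Cdkn2a B6GFP_MD43 line 37.2 (3.59) is below all other lines.

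Of 9 genes that license and copy DNA, 6 were higher in B6GFP_WT and none lower, with a median change of 0.18, and without quality weights none of the 9 passed. Those that passed were the helicase subunits Mcm2 (0.29 ± 0.06), Mcm3 (0.27 ± 0.06), Mcm5 (0.26 ± 0.07), Mcm6 (0.31 ± 0.06) and Mcm7 (0.18 ± 0.07) and the sliding clamp Pcna (0.16 ± 0.06). Mcm6, whose promoter is printed above, read 8.02, 7.83, 7.96, 7.95 and 8.03 in FVB_WT and 8.13, 8.22, 8.4 and 7.96 in B6GFP_WT, where line 49.1 lay inside the FVB range. Cdc6, Cdt1 and Mcm4, which load or form the same helicase, had changes of 0.05, −0.05 and 0.06 and did not pass. Of 3 genes of nucleotide synthesis, Rrm1, a subunit of ribonucleotide reductase, passed with 0.26 ± 0.06 (adjusted p = 0.0019).

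Of the G1 and S phase cyclins and kinases, 4 of 9 were higher: Ccnd1, Cdk6 (0.34 ± 0.12), Ccne1 (0.35 ± 0.11) and Cdk2 (0.23 ± 0.07). Cdk6 is the lowest member, so its counting error is the widest. Of the transcription factors, Mybl2, which encodes B-MYB, was higher by 0.27 ± 0.09 (adjusted p = 0.018), while E2f1 changed by 0.12 ± 0.06 (adjusted p = 0.13) and Foxm1 by 0.13 ± 0.06 (adjusted p = 0.13).

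Among 9 genes of mitotic entry 4 were higher, Ccna2 (0.16 ± 0.05), Cdk1 (0.14 ± 0.05), Cdc25b (0.17 ± 0.06) and Aurkb (0.14 ± 0.06, adjusted p = 0.0497, just inside the threshold). The other 5 did not pass, with Ccnb1 at 0.06 ± 0.06, Ccnb2 at −0.07 ± 0.05, Plk1 at −0.03 ± 0.06 and Aurka at 0.0022 ± 0.0591. Among 9 genes of the spindle, its checkpoint and mitotic exit, 4 were higher. They were Kif11, the kinesins Cenpe (0.34 ± 0.07) and Kif23 (0.24 ± 0.07), and Birc5 (0.17 ± 0.06) of the chromosomal passenger complex. Cdc20, the activator of the anaphase-promoting complex, and Bub1b, of the checkpoint that restrains it, had changes of −0.12 and −0.09 that did not pass. Both proliferation markers were higher, Mki67 by 0.31 ± 0.08 (adjusted p = 0.0040) and Top2a by 0.24 ± 0.06 (adjusted p = 0.0026). Mki67 read 8.61, 8.58, 8.87, 8.85 and 8.7 in FVB_WT and 8.97, 9.02, 9.1 and 8.71 in B6GFP_WT, with line 49.1 again inside the FVB range.

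**Figure D3:**
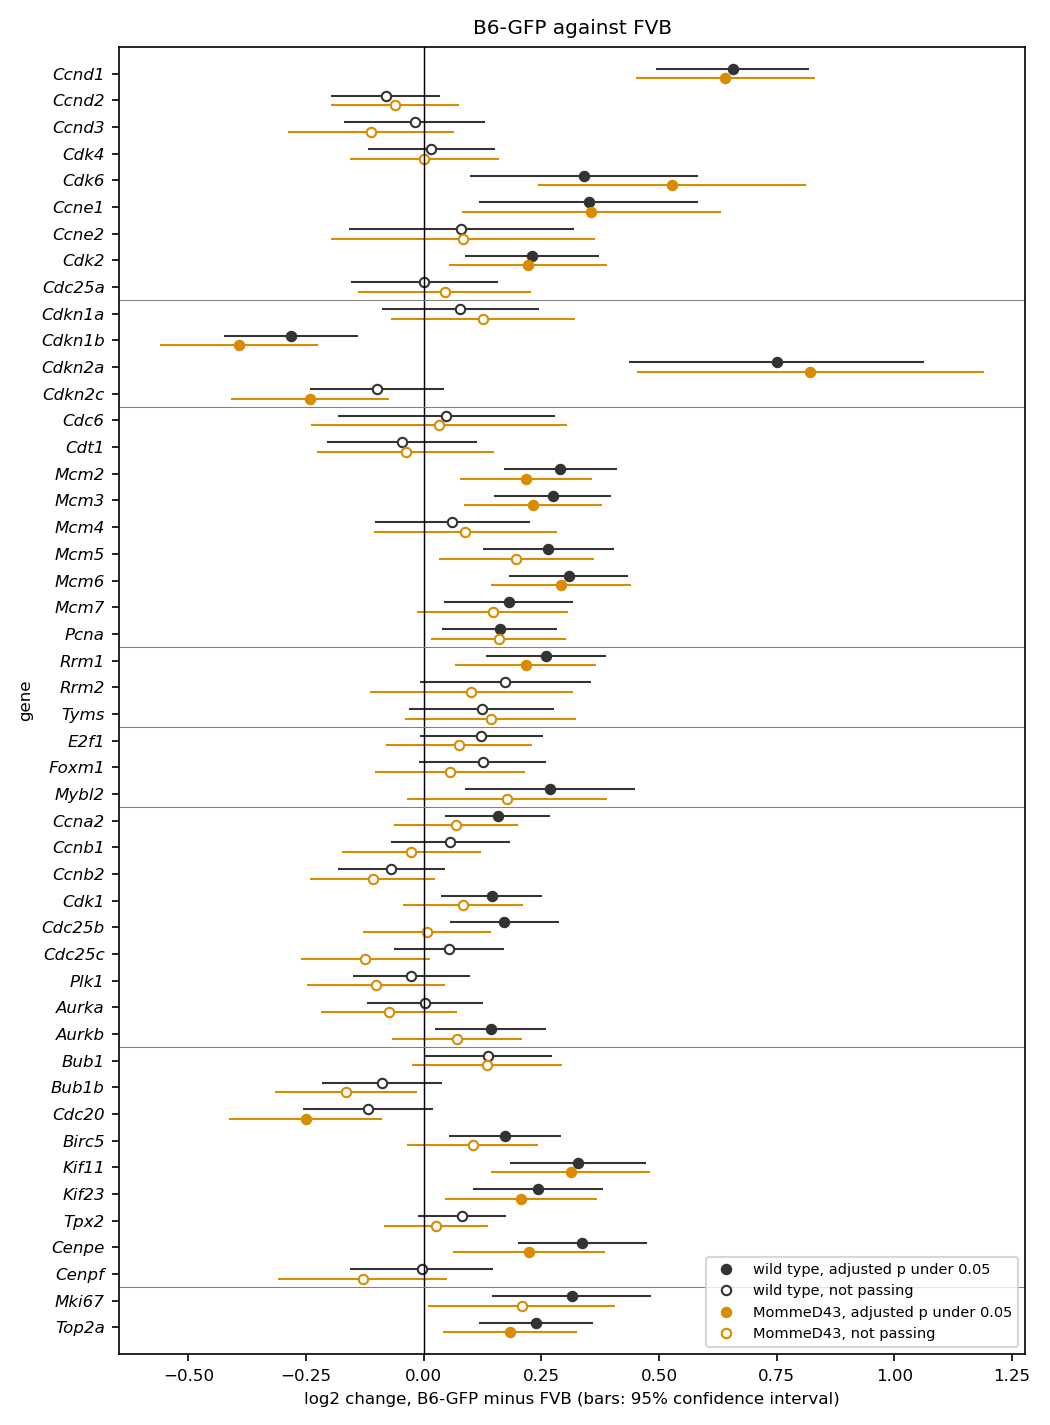
Fitted log2 change, B6GFP minus FVB, of each member in wild-type cells (dark) and in MommeD43 cells (orange), with 95% confidence intervals and filled points for an adjusted p under 0.05. Ccnd1, Cdkn2a, Cdk6, the Mcm genes and Kif11 lie to the right in both genotypes, and Cdkn1b lies to the left.

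The same comparison was made in MommeD43 cells, whose libraries are not among those compared in wild type. It came from the same fit, with shared batch terms, weights and spread, so it is not an independent test. In MommeD43 cells 13 of 48 members (27.1%) were higher in B6GFP and 3 (6.25%) were lower, beside 14.7% and 19.6% of all genes. The median change of the members was 0.09 and that of all genes −0.03. All 13 were among the 23 that were higher in wild type (100% of the shorter list and 56.5% of the longer): Ccnd1, Cdk6, Ccne1, Cdk2, Cdkn2a, Mcm2, Mcm3, Mcm6, Rrm1, Kif11, Kif23, Cenpe and Top2a. The same overlap over all genes was not counted, so how usual it is cannot be said. Without quality weights 2 members passed, Ccnd1 (0.62, adjusted p = 0.021) and Cdkn1b (−0.50, adjusted p = 0.016), beside 6.82% of all genes. Without B6GFP_WT line 49.1 and B6GFP_MD43 line 37.2, 7 members were higher and 4 lower in MommeD43, beside 14.8% of all genes higher, so the share of members that were higher was near that of all genes. The same held without FVB_MD43 line 19, with 7 members higher and 3 lower, beside 14.3% of all genes higher. In wild type, leaving out lines 49.1 and 37.2 gave 23 higher and 1 lower, beside 18.4% of all genes higher. Within batch 1 alone, 8 members were higher and 3 lower in MommeD43, beside 10.3% of all genes higher. Centring each library gave 17 members higher and 1 lower, and turned the split over all genes from 2199 and 2927 into 3013 and 2265. Top2a passed under 17 of 30 alternatives, and its change of 0.18 was 0.09 without B6GFP_MD43 line 22.3.

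Ccnd1 read 11.16, 11.1, 10.88 and 11.21 in FVB_MD43 and 11.65, 11.73, 11.95 and 11.38 in B6GFP_MD43, a change of 0.64 ± 0.09 (adjusted p = 1.7e-05). Cdkn1b read 7.09, 6.98, 7.12 and 7.21 in FVB_MD43 and 6.72, 6.36, 6.43 and 6.9 in B6GFP_MD43. Its change was −0.39 ± 0.08 (0.76-fold; adjusted p = 7.9e-04), and both genes passed under all 30 alternatives in this genotype. Every B6GFP_MD43 line was above every FVB_MD43 line for Ccnd1, Cdk6, Kif23, Cenpe and Top2a (10.4% of the members), near the share of all genes (9.85%). Every B6GFP_MD43 line was below every FVB_MD43 line for Cdkn1b (2.08%), beside 11.5% of all genes. Cdk6 changed by 0.53 ± 0.14 (adjusted p = 0.0051).

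Cdkn2a read 4.4, 4.21, 3.97 and 3.97 in FVB_MD43 and 4.86, 3.59, 5.61 and 4.81 in B6GFP_MD43. Line 37.2 was below every other line, so the groups overlapped, and the change of 0.82 ± 0.18 (adjusted p = 0.0012) gave that line little weight. Without lines 37.2 and 49.1 the change was 0.83 (adjusted p = 6.7e-04), and without quality weights it was 0.67 (adjusted p = 0.30). Besides Cdkn1b, the lower members were Cdkn2c (−0.24 ± 0.08, adjusted p = 0.024) and Cdc20 (−0.25 ± 0.08, adjusted p = 0.017). When libraries were centred, Cdkn1b was the 1 lower member that passed. Mki67 did not pass in MommeD43 cells (0.21 ± 0.10, adjusted p = 0.098), and Pcna did not (0.16 ± 0.07, adjusted p = 0.079). None of the 9 genes of mitotic entry passed, and their median was −0.03. That a gene passed in one genotype alone does not show that its strain difference depended on genotype, which is tested with the interaction of genotype with strain below.

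Other genes of the cycle were counted from lists outside the 48, to be read beside the 17.9% higher and 23.2% lower of all genes in wild type and the 14.7% and 19.6% in MommeD43. These counts come from the weighted fit alone, and no alternative was counted for the lists. Without weights 8.44% of all genes passed in wild type and 6.82% in MommeD43. In wild-type cells 18 of 39 further S phase genes were higher in B6GFP and 1 was lower (median 0.18), and in MommeD43 cells 12 were higher and 1 lower (median 0.14). The smallest p in wild type was that of Pole, a replicative polymerase subunit (0.50 ± 0.08). Of 50 further G2 and mitosis genes, 20 were higher and 3 lower in wild type (median 0.13), and 11 were higher and 4 lower in MommeD43 (median 0.07). Pttg1, which encodes securin, was the extreme of this list in the opposite direction, at −1.93 ± 0.08 in wild type and −2.04 ± 0.09 in MommeD43. Cdca3, a mitotic entry factor, was higher by 0.71 ± 0.06 and 0.58 ± 0.07. Of 18 further RB, E2F and MuvB genes, 3 were higher and 2 lower in wild type, with E2f5 at −0.52 ± 0.09 and Lin52 at −0.41 ± 0.08. Of 4 further genes named as CDK inhibitors and grouped by symbol alone, Cdkn1c was lower (−1.05 ± 0.16), and Cdkn3 was higher by 0.49 ± 0.10. Of 20 p53 target genes, 4 were higher and 5 lower in wild type (median −0.02), with Plk2 at 1.20 ± 0.11 and Btg2 at −0.88 ± 0.12. The shares of the p53 list in wild type were near those of all genes. For the RB, E2F and MuvB list the share that was higher in wild type was also near that of all genes, and its lower share rests on 2 genes.

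Markers of other cell types were counted in the same way, from the weighted fit alone. All 5 astrocyte markers in the table were lower in B6GFP in both genotypes (median −1.70 in wild type and −2.14 in MommeD43), and their summed level was 8.33 to 8.94 log2 CPM in FVB_WT, 8.53 to 8.98 in FVB_MD43, 7.56 to 7.99 in B6GFP_WT and 7.82 to 7.95 in B6GFP_MD43. Of the 10 neural stem markers, 2 were higher and 6 lower in wild type, with Nes at 0.67 ± 0.07 and Hes1 at −1.41 ± 0.16, while the summed levels overlapped. Of 8 oligodendrocyte lineage markers 2 were higher and 2 lower in wild type, with changes from −4.49 ± 0.36 (Mbp) to 0.95. Their summed level had a median of 10.64 log2 CPM in FVB_WT and 10.87 in B6GFP_WT. Of 7 neuronal markers 1 was higher and 2 lower. The shares of both lists were near the 17.9% and 23.2% of all genes. The defining markers Gfap and Aqp4 were under 1 CPM in 13 of 22 libraries each, Mbp in 12, and Mog and Stmn2 in 21. The part of these cell type differences in the strain differences of the members was not tested.

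MommeD43 was then compared with wild type within each strain, which asks whether the allele changes the expression of the cell cycle. No member passed in FVB (0.0737% of all genes did, 11 genes), and none had an unadjusted p under 0.05, beside 1024 of all genes (6.86%). The smallest adjusted p among the members was 0.79. The changes ran from −0.23 to 0.13 with a median of 0.05 (0.01 for all genes), and 43 of 48 were positive, beside 56.9% of all genes. Without FVB_WT line 32 the median was 0.017, and without FVB_MD43 line 46 it was 0.029. The intervals set the limit: the 95% confidence interval of 47 members lay within 0.5 of 0 on the log2 scale. The smallest p were those of Cdc25b, a phosphatase that activates CDK1 (0.10 ± 0.05), Mki67 (0.13 ± 0.07) and Birc5 (0.09 ± 0.05). Without FVB_MD43 line 46 a single member passed, Ccnd3 at 0.20 ± 0.05 (adjusted p = 0.027), together with 6.57% of all genes.

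**Figure D4:**
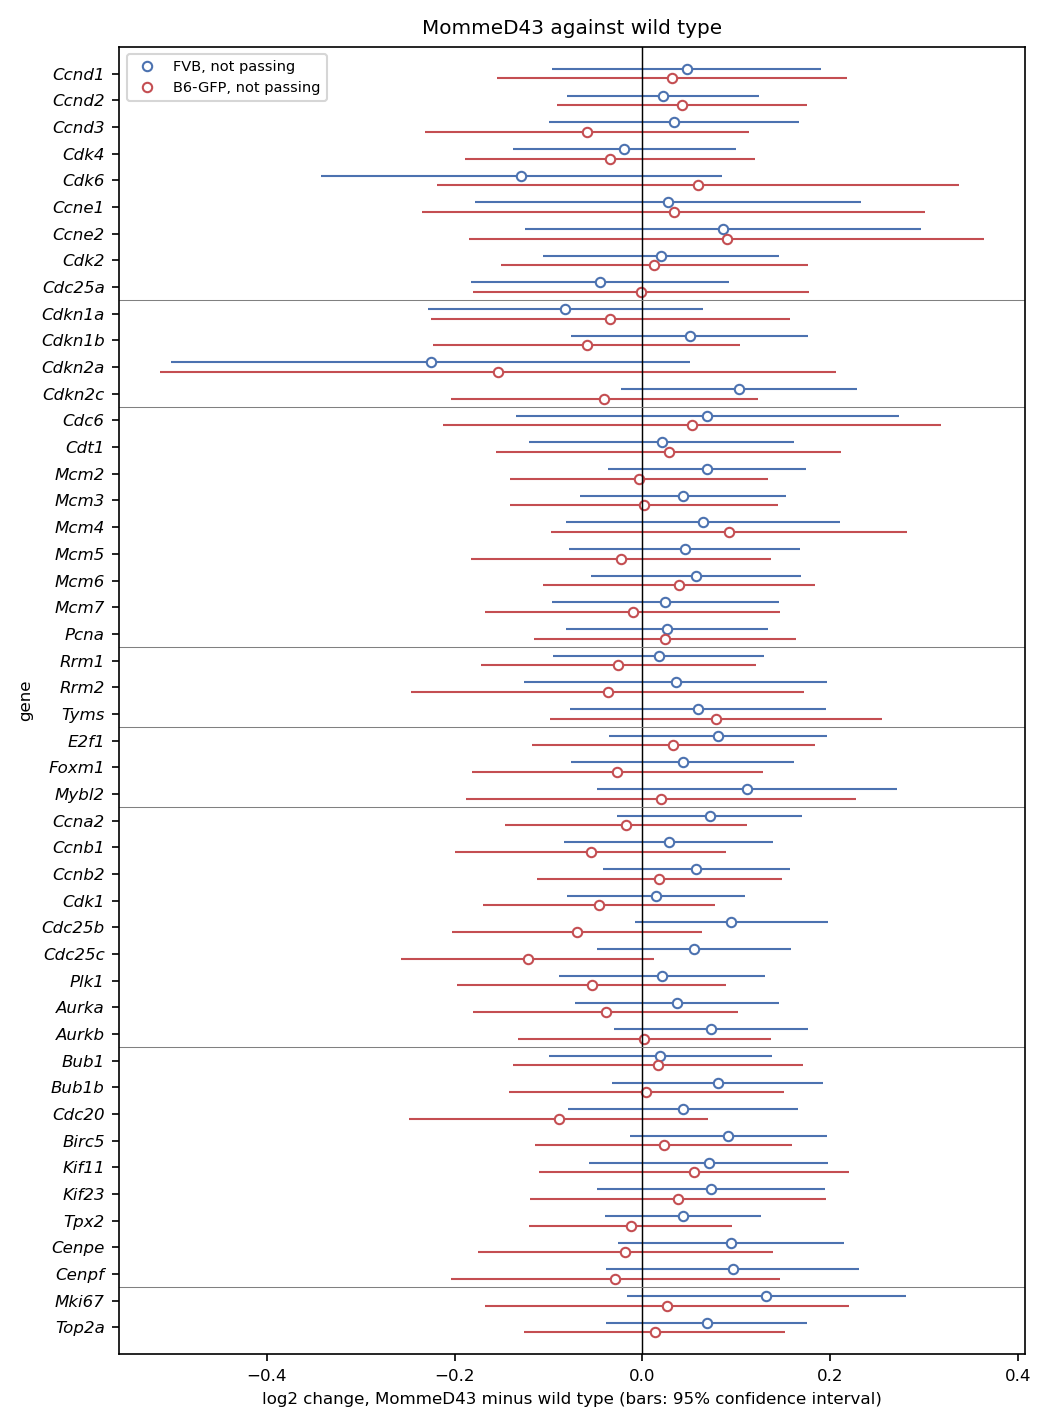
Fitted log2 change, MommeD43 minus wild type, of each member in FVB (blue) and B6GFP (red), with 95% confidence intervals. No point is filled since no member passed; in FVB the points lie between −0.23 and 0.13 and 43 of 48 are right of 0, and in B6GFP 24 of 48 are.

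In B6GFP no member and no gene passed (0% of all genes), with 319 genes (2.14%) and none of the members at an unadjusted p under 0.05. The changes ran from −0.15 to 0.09 with a median of 2.7e-05, and 24 of 48 were positive. The smallest p were those of Cdc25c (−0.12 ± 0.07), Cdc20 (−0.09 ± 0.08) and Cdc25b (−0.07 ± 0.06). Averaged over strains none passed (0.0335% of all genes), with 690 genes and none of the members at an unadjusted p under 0.05. Cdkn2a (−0.19 ± 0.11), Birc5 (0.06 ± 0.04) and Mcm4 (0.08 ± 0.06) had the smallest p. The interaction of genotype with strain (the B6GFP effect less the FVB effect) passed in no member and no gene (0%). Cdc25c alone had an unadjusted p under 0.05 for it, at −0.18 ± 0.08 (adjusted p = 0.9998), beside 459 genes (3.08%), and Cdc25b and Cdkn2c followed at −0.16 ± 0.08 and −0.14 ± 0.10.

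By line, MommeD43 and wild type overlapped for 47 members in FVB and for all 48 in B6GFP. The exception was Cdkn1b, for which every FVB_MD43 line (6.98 to 7.21) lay above every FVB_WT line (6.9 to 6.97), as 1.05% of all genes did not overlap in FVB and 1.23% in B6GFP. The fit, which weights the libraries, gave this gene a change of 0.05 ± 0.06 (adjusted p = 0.95). For the markers, Mki67 read 8.75, 8.94, 8.76 and 8.85 in FVB_MD43 and 9.12, 9.59, 9.22 and 8.63 in B6GFP_MD43, and in each strain they overlapped the wild-type values given above. Top2a was 9.51 ± 0.11 (SD, n = 5) in FVB_WT, 9.62 ± 0.09 (n = 4) in FVB_MD43, 9.7 ± 0.18 (n = 4) in B6GFP_WT and 9.83 ± 0.12 (n = 4) in B6GFP_MD43. In the lists outside the 48, none of the 39 S phase, 50 G2 and mitosis, 18 RB, E2F and MuvB, 4 inhibitor or 20 p53 target genes passed in either strain.

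The lines of a group also differed from each other. The mean over the 48 members of the log2 difference from the mean over lines was −0.15 to −0.01 in FVB_WT, −0.05 to 0.05 in FVB_MD43, −0.22 to 0.19 in B6GFP_WT and −0.15 to 0.28 in B6GFP_MD43. The SD over lines was 0.05 in both FVB groups and 0.17 and 0.18 in the B6GFP groups. In B6GFP_WT it includes line 49.1 (−0.22), where the other lines were at 0.01, 0.07 and 0.19. In B6GFP_MD43 it includes line 37.2 (0.28), where the other lines were at 0.07, 0.17 and −0.15. Line 49.1 was the lowest of B6GFP_WT for 40 of 48 members, and line 38.5 was the highest for 35. In B6GFP_MD43, line 37.2 was the highest for 38 members and line 23.5 the lowest for 38. In FVB no line was the highest or the lowest for more than 27 members (FVB_MD43 line 17b, the highest for 27).

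**Figure D5:**
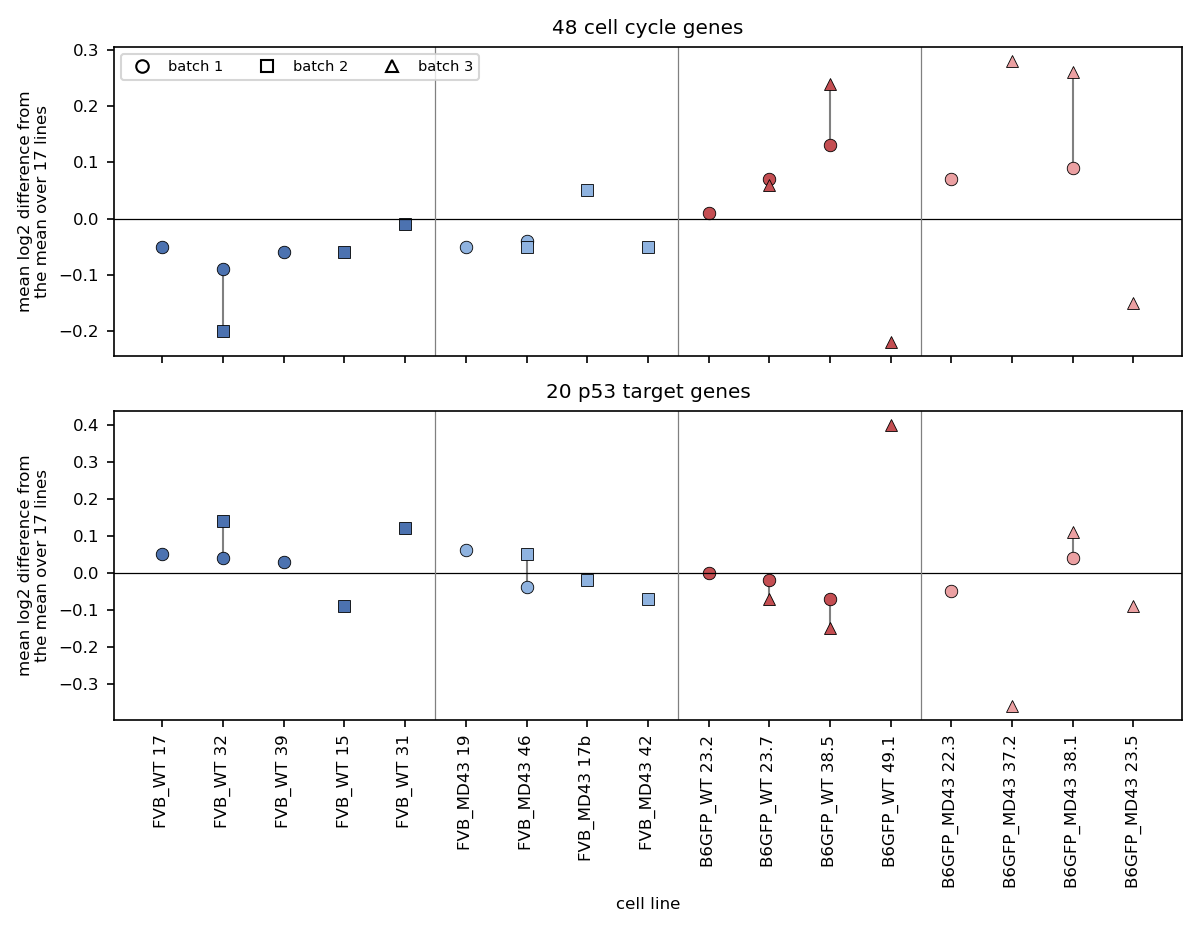
Mean log2 difference from the mean over 17 lines, for the 48 members (top) and 20 p53 target genes (bottom), one symbol per library with repeat libraries of a line joined and the shape giving the batch. B6GFP_WT line 49.1 is lowest for the members (−0.22) and highest for the p53 targets (0.4), and B6GFP_MD43 line 37.2 is the reverse (0.28 and −0.36).

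Line 49.1 lay below the mean over lines in every class but the inhibitors. Its class means were −0.38 for mitotic entry, −0.34 for G1 and S phase cyclins and kinases, −0.24 for the spindle genes and −0.19 for replication, and 0.34 for the 4 CDK inhibitors among the members. The 4 further genes named as CDK inhibitors, Cdkn3 among them, had a mean of −0.43, the lowest of the lines. It held the highest Cdkn1a of all lines (9.19, against 8.52 to 8.78 in the rest of its group) and the highest Cdkn2a (5.68), and the lowest Ccnd2 (10.03) and Ccne2 (4.11). Kif11 (8.1) and Foxm1 (7.3) were not lowered in it. Its mean over 20 p53 target genes was 0.4, the highest of the lines. Its mean over the 5 astrocyte markers was 0.88 and that over the neuronal markers −1.34, and their part in its levels was not tested.

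Line 37.2 had the opposite signs for the members. Its class means were 0.51 for the proliferation markers, 0.49 for the transcription factors, 0.47 for nucleotide synthesis and 0.41 for both replication and the G1 and S phase genes, and −0.59 for the CDK inhibitors. The 4 further genes named as CDK inhibitors were at −0.4 in it. It held the highest Mki67 (9.59) and Ccne1 (6.49) and the lowest Cdkn2a (3.59), Cdkn1a (8.06) and Cdkn1b (6.36) of all lines, and its mean over the p53 targets was −0.36, the lowest of the lines. Its Ccnd1 (11.73) and Ccnb2 (6.31) lay within the range of the other B6GFP lines. The neuronal, endothelial and fibroblast marker sums of this line were the highest of all libraries, as given above, and their part in its levels was not tested. Line 23.5 was low without such a shift of the inhibitors, at −0.15 for all members, −0.04 for the inhibitors and −0.09 for the p53 targets, and its Cdc6 was 4.78 and its Cdc20 was 7.11. Each of the 3 lines had 1 library used here, in batch 3 (the other column of line 37.2 was among those left out), so line and library cannot be told apart in them.

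Lines sequenced in both batches of their strain show how far a line repeats in the corrected values. The study used technical replicates across batches for its correction. Part of the likeness of repeats may thus have been set beforehand, and how well uncorrected libraries repeat cannot be read here. For 5 lines the mean over the members was −0.09 and −0.2 (FVB_WT line 32), −0.04 and −0.05 (FVB_MD43 line 46), 0.07 and 0.06 (B6GFP_WT line 23.7), 0.13 and 0.24 (B6GFP_WT line 38.5) and 0.09 and 0.26 (B6GFP_MD43 line 38.1). Repeats thus differed by up to 0.17 in the mean, and the median absolute difference of a member between repeats was 0.07 to 0.171. The largest difference of a single member between repeats was 0.27 to 0.91 by line, and lines 49.1, 37.2 and 23.5 had no repeat against which their single genes could be read.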

How the data were processed

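RNA-seq of NSC lines was used as the authors deposited it, as log2 CPM of 14922 genes in 24 columns, with batch effects already subtracted. Per the labels and the methods of the study, reads were trimmed with Trim Galore 0.4.4, mapped with HISAT2 2.0.5 to GRCm38.p6 and processed with limma 3.40.6. Every column matched 1 labelled sample. In 2 columns (FVB_MD43 line 57 and B6GFP_MD43 line 37.2, both batch 1) every value was that of its group mates averaged, to within 8e-09, so they were left out. Correction before deposit removes part of the spread between batches, so errors may be too small. Absolute depth is unknown, and relative depth was read from the steps between low values. No counting intervals are given.

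Changes were fitted with limma 3.58.1 (R 4.3.3) on all genes, with group and batch as terms, library quality weights, line as a random block (correlation 0.0827) and a trended prior. Benjamini-Hochberg adjustment ran over all 14922 genes, with a threshold of 0.05. The test was checked on simulated data for MommeD43 against wild type in FVB, without the block. The simulated libraries were independent and of equal quality, so that check does not cover batch, repeat libraries, unequal quality or the strain comparisons. Replicates are lines, and repeat libraries of a line were averaged for values by line. By rule, each comparison named up to 8 passing members with the smallest p (or the 3 smallest where fewer than 3 passed), 14 members named throughout and up to 2 genes per list. Other members are named to complete their class and were chosen after their values were seen. The 48 members and all other gene lists were chosen with earlier results of these data known. Promoter windows came from RefSeq (GRCm38.p6), and no window was used for Aurkb, Ccna2, Ccnd1, Ccnd2, Ccne2, Cdc25c, Foxm1, Mcm4 and Tpx2. Alternatives left out the weights, single lines or the block, averaged lines, centred libraries, filtered low genes or used log2(CPM + 1).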

Additional observations from a re-analysis of the deposited data

Results flagged for a closer look

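Single lines lay far from the rest of their group in 9 of 140 sets of values tested, where chance flags about 1 in 20. In FVB_MD43, line 17b was the highest for Ccnb1 (8.12 log2 CPM, next line 7.81), Cdk1 (8.18, next 7.96), Foxm1 (7.2, next 7.02) and Mcm6 (8.17, next 7.96). The same line was highest in the mean log2 difference over all 48 members (0.05, next −0.04), over the replication licensing genes (0.13, next −0.07) and over the transcription factors (0.11, next −0.05). In B6GFP_WT, line 38.5 was highest for the transcription factors (0.17, next −0.03). In FVB_WT, line 32 was lowest for Rrm1 (8.56 log2 CPM, next 8.67).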

How the results depend on the processing

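No member passed between MommeD43 and wild type in either strain or averaged, except for 1 member in FVB without FVB_MD43 replicate 2 (line 46, leave-out range 0 to 1) and 2 averaged over strains with all 24 columns. Of all genes 6.57% and 6.77% passed in these fits. Between strains, 24 members passed in wild type and 16 in MommeD43, beside 41.1% and 34.4% of all genes. Without quality weights 2 and 2 passed, beside 8.44% and 6.82% of all genes. An alternative chosen after seeing the data left out the weights, B6GFP_WT line 49.1 and B6GFP_MD43 line 37.2. It gave 7 and 4 members, beside 16.2% and 12.2% of all genes. With the mean of each line 15 passed in wild type, beside 35.6% of all genes. With all 24 columns 46 passed in MommeD43, where the weights did not converge and 93.8% of all genes passed, and Ccnd2 turned from −0.06 to 0.03012. Leaving out 1 line at a time gave 10 to 24 in wild type and 10 to 23 in MommeD43. The 10 came without FVB_WT replicate 2 (line 32), beside 26.9% of all genes, and without FVB_MD43 replicate 1 (line 19), beside 32.7%. The cause was not tested. Replicate numbers did not pair the samples (correlations −0.484 to 0.138). With the number as a replicate block 25 and 13 members passed between strains, beside 46% and 32.6% of all genes, and 0 between genotypes. Of 3061 values of named genes under alternatives, 2977 kept their side of the threshold, 63 lost it, 20 gained it and 1 reversed. This total includes the genotype comparisons, in which no member passed, so it overstates how stable the calls between strains are. Pcna in wild type passed under 21 of 30 alternatives, and Top2a in MommeD43 under 17.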
